A study of Mus musculus with 4 samples.

Results

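The subject is the open chromatin of mouse chromosome 15 in lung adenocarcinoma cells in which the long noncoding RNA gene Malat1 was targeted for activation. The members were the peaks of the deposited annotated peak table that lie on chromosome 15, 3984 of 80881 peaks (4.93%), and they were chosen by chromosome name alone. The chromosome itself was selected on measured values, with earlier results of the same contrast known, so the differences between the groups below are descriptions, with no test of the chromosome as a whole. The cells, called KPC in the labels, are a single line derived from a KP mouse lung tumour and carry lentiviral Cas9 (SpCas9, puromycin selection). Cas9 and the lenti-SAM-Hygro activation vector were shared by both groups, which differed in the guide: dRNA against luciferase (Con dRNA, the control) or dRNA against Malat1 (mA2 dRNA). Each of the 2 groups had 2 biological replicate cell samples, and ATAC-seq, in which a transposase cuts and tags accessible DNA, was run on all 4. The deposited group means carry no spread and the per-library columns could not be tied to samples by name, so each level below is the authors' mean of a group, given without an error, and the depth of each library is not known here.

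ATAC-seq reads pile up where nucleosomes are displaced, mainly at promoters, which are often open in many cell types, and at distal elements such as enhancers, whose openness differs more between cell types. Malat1 lies on another chromosome, 19, and its RNA stays in the nucleus, where it is known to associate with actively transcribed genes and with splicing factors. Mouse chromosome 15 carries the oncogene Myc, the transcriptional repressor gene Trps1, the type II keratin cluster, the Hoxc cluster and the Ly6 surface protein family.

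The members lay between positions 3202243 and 103943784 (mm10), and 3976 of them shared the same width, with 8 wider. The authors had assigned them to 805 genes, all of which were found by symbol in RefSeq. By the authors' annotation 598 were promoter peaks, 1591 intron peaks and 1340 distal intergenic peaks.

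Promoter sequence is independent of the contrast. RefSeq holds 345 chromosome 15 promoters (250 bases upstream of a start, GRCm38.p6, the assembly that mm10 names) that overlapped a peak, and their median GC content was 62.0%, against 49.2% for the 590 with no peak. The SP/KLF motif GGGCGG, searched on both strands, was present in 63.5% of the promoters with a peak, in 17.3% of those without and in 32.7% of all 32817 mouse promoters in the table. The ETS motif CCGGAAG was present in 14.5%, 2.54% and 6.90% of the same sets. The AP-1 motif TGANTCA was present in 6.38%, 6.61% and 6.75%, and the TEAD motif GGAATG in 10.1%, 11.9% and 12.6%. Thus the promoters with a peak were richer in GC and in the GC-rich SP/KLF and ETS letters, and were close to the others for AP-1 and TEAD letters. Over all chromosomes the promoters with a peak had a median GC content of 60.8% and held GGGCGG in 61.2%, so this was not a property of chromosome 15 alone.

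Upstream sequences of 3 genes whose promoter peaks had a higher mean with the Malat1 guide are shown to display this range, from GC-rich with several matches to no match upstream of 1 of its starts. Cdh6 encodes a cadherin, Sema5a a semaphorin, and Fbln1 fibulin-1, an extracellular matrix protein. Each is the part of the peak upstream of a RefSeq start, 5′ to 3′ on the gene's strand, and capitals mark GGGCGG or its reverse complement.
Cdh6, chr15:13173676-13173832, minus strand, 58.6% GC, 2 overlapping matches: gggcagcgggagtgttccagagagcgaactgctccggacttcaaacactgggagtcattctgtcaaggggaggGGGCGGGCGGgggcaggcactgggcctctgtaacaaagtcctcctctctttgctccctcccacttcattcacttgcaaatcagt
Sema5a, chr15:32244640-32244812, plus strand, 78.0% GC, 5 matches: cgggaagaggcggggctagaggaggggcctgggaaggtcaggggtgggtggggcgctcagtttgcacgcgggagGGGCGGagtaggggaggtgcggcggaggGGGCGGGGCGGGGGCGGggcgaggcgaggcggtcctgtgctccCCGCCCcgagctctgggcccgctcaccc
Fbln1, chr15:85205804-85205948, plus strand, 57.2% GC, 0 matches: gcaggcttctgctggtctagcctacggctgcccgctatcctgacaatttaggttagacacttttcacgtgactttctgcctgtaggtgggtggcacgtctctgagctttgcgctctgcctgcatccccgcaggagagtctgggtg
Fbln1 has another RefSeq start within the same peak, and the longer stretch upstream of that start (64.2% GC) holds 1 match.
The peak over the Cdh6 sequence had a mean of 264 normalized reads for the Malat1 guide, against 120 for the luciferase control. The peak over the Sema5a sequence, which the authors assigned to the divergent noncoding gene Snhg18, had 348 and 177, and that over the Fbln1 sequence 155 and 58.2. The folds were 2.19, 1.96 and 2.67, and since the peaks were picked for a higher mean they say nothing of the matches. Over all chromosome 15 promoters with a peak, the median difference by GC quartile lay between 0.15 and 0.18 on the log2 scale.

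With the Malat1 guide, the mean was higher than in the control at most chromosome 15 peaks. The median peak stood at 85.6 normalized reads under the Malat1 guide against 68.7 under the luciferase guide, beside 76.0 and 69.3 on the other chromosomes. The median difference, log2 mean with the Malat1 guide minus log2 mean with the luciferase guide, was 0.21 (interquartile range -0.00 to 0.52), against 0.08 or 0.09 for the peaks of all other chromosomes or of the whole table. A higher mean under the Malat1 guide was found at 74.9% of the members and at 60.1% of the peaks elsewhere. Chromosome 15 peaks held 5.57% of all normalized peak reads in the Malat1 guide group, against 5.14% in the control. In a bulk assay, more cells with an open site and more reads per open site cannot be told apart, and input DNA was not analysed here.

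A peak is called when its adjusted p in the authors' deposited table is under 0.05. On chromosome 15, 186 peaks (4.67%) were called higher with the Malat1 guide and 16 (0.402%) lower, beside 2.23% and 0.507% of all peaks. In either direction 202 peaks (5.07%), assigned to 142 genes, were called, beside 2.73% of all peaks. These shares were among the values known when the chromosome was picked, and nothing is read from the gap. The higher calls had a median of 151 reads for the Malat1 guide against 55.3 for the control, and a median fold of 2.70. The lower calls went from a median of 263 reads with the luciferase guide to 122 with the Malat1 guide, a median fold of 2.23. Higher calls made up 92.1% of the chromosome 15 calls. When each difference was centred on the median of its own chromosome that share was 68.8%, with 88 higher and 40 lower calls, and with centring on each 10 Mb window it was 65.6%, with 80 and 42.

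**Figure D1:**
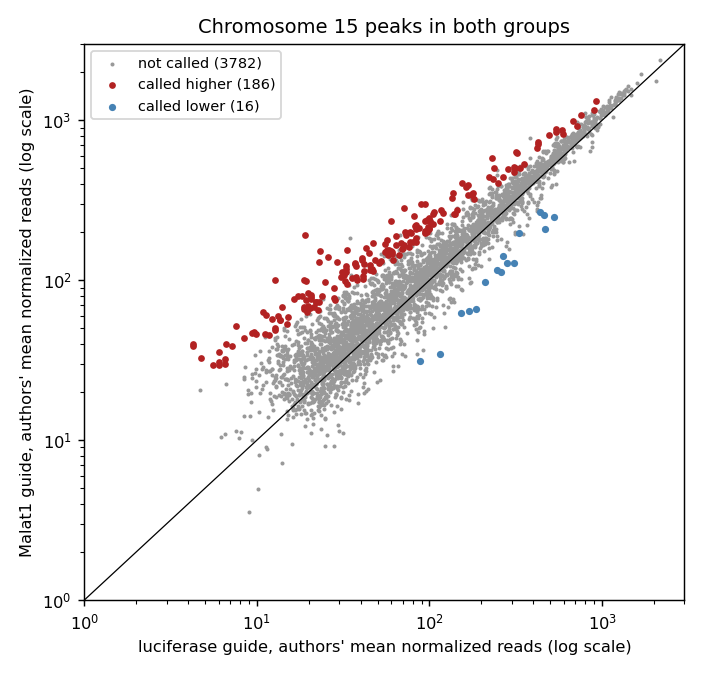
Each point is a chromosome 15 peak, with the authors' mean normalized reads for the luciferase guide on the x axis and for the Malat1 guide on the y axis, both on log scales, and the line marks equal means. The 186 higher calls (red) spread over nearly the whole range of levels, whereas the 16 lower calls (blue) all had more than 80 reads with the luciferase guide.

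Among the 20 chromosomes with at least 100 peaks, chromosome 15 ranked 3rd by median difference, after chromosomes 16 (0.26) and 13 (0.23), and just above chromosome 19 (0.20). It ranked 1st by the share of peaks called higher, with chromosomes 16 and 19 at 3.41% and chromosome 13 at 3.08%. Chromosome X was lowest by median difference, at -0.12. By the share called lower, chromosome 15 was 12th. The upward shift was therefore shared with other chromosomes, and chromosome 15 stood 1st in the number of calls per peak. Its peaks were not unusually strong in the control group, where it ranked 9th by median level.

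**Figure D2:**
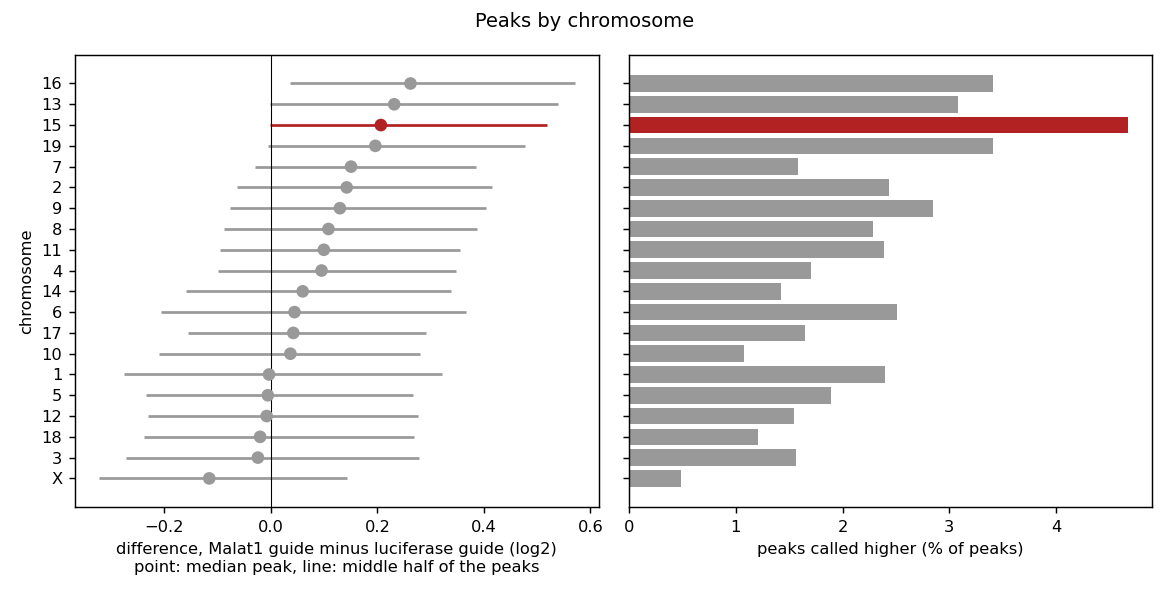
Left, the median difference (point) and interquartile range (line) of the peaks of each chromosome, in log2 units, Malat1 guide minus luciferase guide; right, the percentage of peaks called higher. Chromosome 15 (red) had a median of 0.21, below chromosomes 16 and 13, and the highest share of higher calls, 4.67%.

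The shift ran along the whole chromosome. All 11 windows of 10 Mb had a median difference above 0, from 0.13 in the first window to 0.31 in the window from 50 Mb. Of the 64 windows of 1 Mb with at least 20 peaks, 62 had a median above 0 and 60 a median above that of all peaks. Higher calls were present in 73 of the 94 windows of 1 Mb that had a peak, and lower calls in 13. The share of peaks called higher ranged from 1.66% in the window from 100 Mb to 8.77% in the window from 40 Mb, while the largest number, 34, was in the window from 50 Mb. The distal end, from 70 Mb on, had lower medians, 0.15 to 0.20, than the stretch from 50 to 70 Mb, 0.28 and 0.31. Promoter peaks had medians from 0.13 to 0.36 across the windows, so they too were above 0 in every window.

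**Figure D3:**
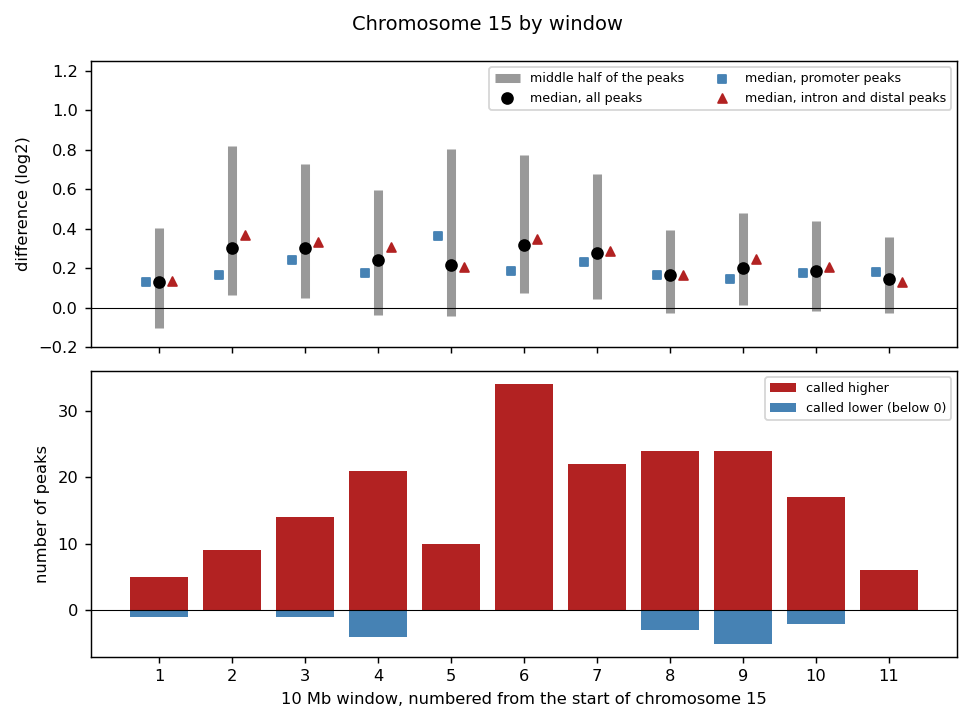
Top, the median difference of all peaks (black), of promoter peaks (blue squares) and of intron and distal peaks (red triangles) in each 10 Mb window of chromosome 15, with the interquartile range of all peaks in grey, in log2 units; bottom, the number of peaks called higher (red) and lower (blue, drawn below 0). Medians were above 0 in all 11 windows, and the window from 50 Mb, the 6th, had 34 higher and 0 lower calls.

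Distal elements differed more than promoters. Distal intergenic peaks had a median difference of 0.26 with 90 of 1340 called higher (6.72%) and 5 lower. Intron peaks had 0.21 with 70 of 1591 higher (4.40%) and 7 lower, and promoter peaks 0.17 with 14 of 598 higher (2.34%) and 0 lower. On the other chromosomes 2.36%, 2.36% and 1.15% of these classes were called higher, with medians of 0.09, 0.11 and 0.06. The chromosome 15 distal, intron and promoter peaks also differed in level, with median means of 60.6, 67.7 and 286 reads. At an unadjusted p under 0.05 in the same deposited test, 66 promoter peaks were higher and 2 lower. Over all chromosome 15 peaks, 611 of 3984 were higher and 69 lower at that limit. Promoter differences were small but of nearly one sign: the Malat1 guide gave the higher mean at 86.8% of the chromosome 15 promoter peaks and at 62.9% of promoter peaks elsewhere. This was not particular to chromosome 15, which ranked 3rd by promoter median. Chromosomes 13 and 16 had larger promoter medians, 0.204 and 0.200, and chromosome 19 had 0.160. With centring on the chromosome's median the promoter median was -0.04 with 4 higher and 2 lower calls, the intron median 0.00 with 32 and 17, and the distal intergenic median 0.06 with 47 and 15.

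The share called higher increased with distance from the assigned start site. Within 3 kb it was 2.38% of 840 peaks, from 3 to 50 kb 3.76% of 2046, from 50 to 200 kb 6.95% of 906, and at 200 kb or more 13.5% of 192, of which 26 were called. The other chromosomes followed the same order at lower shares, 1.28%, 1.79%, 3.05% and 4.46%. The median difference of the peaks at 200 kb or more was 0.56, against 0.15 on the other chromosomes. Chromosome 19 came next, with 10.1% called higher and a median of 0.55. With centring on the chromosome's median, the peaks at 200 kb or more had 15 higher and 3 lower calls, from 26 and 0, and a median of 0.36. Leaving out the peaks from 50 to 52 Mb, a region described below, left 20 of 179 such peaks called (11.2%) and a median of 0.51.

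**Figure D4:**
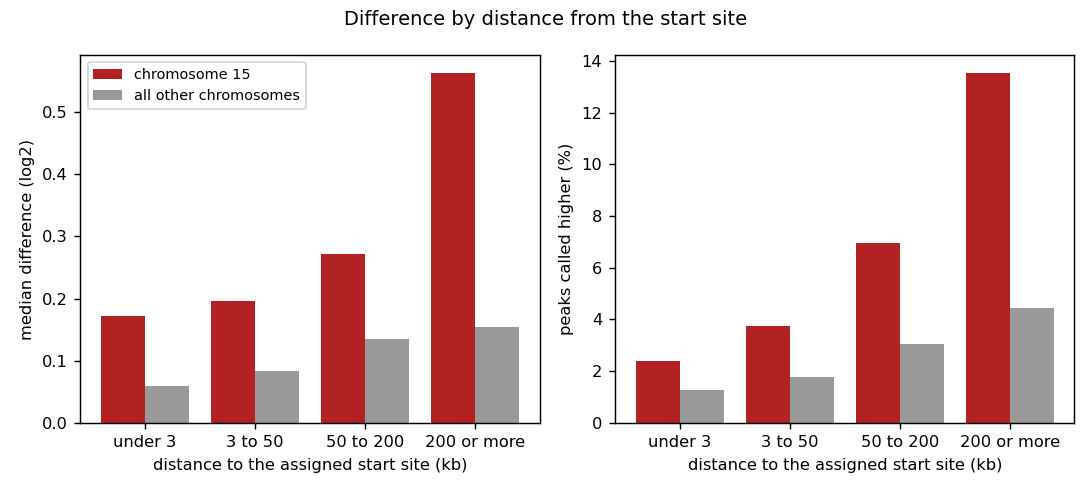
Bars show the median difference in log2 units (left) and the percentage of peaks called higher (right) by distance from the assigned start site, for chromosome 15 (red) and all other chromosomes together (grey). Both measures were highest at 200 kb or more on chromosome 15, at 0.56 and 13.5%.

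The shift was present at every peak height. In 4 classes of mean level, with limits at the quartiles of all peaks (35.9, 73.1 and 186 reads), the chromosome 15 medians were 0.26, 0.29, 0.21 and 0.16 from weakest to strongest. Elsewhere they were 0.11, 0.12, 0.08 and 0.06. Chromosomes 13 (0.30, 0.27, 0.21 and 0.20) and 16 (0.32, 0.34, 0.26 and 0.21) had equal or larger medians in nearly every class. In the class from 73.1 to 186 reads, 7.53% of chromosome 15 peaks were called higher, against 3.69% on chromosome 13 and 4.97% on chromosome 16. None of the 5 strongest chromosome 15 peaks was called. Their means with the Malat1 and luciferase guides were 2396 and 2167 at the promoter of Sp1, a GC-box-binding transcription factor, 1942 and 1680 at that of the nonmuscle myosin heavy chain gene Myh9, and 1649 and 1404 at that of the mitochondrial thioredoxin gene Txn2. The peak assigned to Lncppara had 1717 and 1589. The remaining one, which the authors annotated to an intron of the noncoding gene Pvt1 and assigned to Macroh2a3, was lower in mean, 1757 and 2063 (adjusted p = 0.142 in the authors' deposited table). It was called lower under all 4 centrings, with recomputed adjusted p from 2.36e-06 to 0.0472. Each centring subtracted a positive shift, which enlarges a difference below 0, so these calls are no added support.

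The densest group of calls lay from 50 to 52 Mb, around Trps1, which encodes a GATA-type zinc finger repressor. The region was singled out after its values were seen. It held 41 peaks, of which 19 (46.3%) were called higher and none lower (27 and 0 at an unadjusted p under 0.05), and 95.1% had a higher mean with the Malat1 guide. With centring on the chromosome's median, 12 of the 19 were called. Leaving the region out, 167 of 3943 peaks (4.24%) were called higher and 16 lower on the rest of chromosome 15.

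Within this region the first 25 peaks, assigned to Mir1907, Trps1 and the predicted gene Gm19303 and lying from 50153802 to 51621864, all had a higher mean with the Malat1 guide, by 1.65 to 9.35 times, and 16 were called. The ratio of their median levels was 3.27. Trps1 itself spans 50654757 to 50890631, and 6 peaks lay in its body, of which the 4 intron peaks were called. The intron peak from 50698488 had 79.6 reads for the Malat1 guide against 17.3 in the control, and that from 50703772 had 99.5 against 19.2 (5.18-fold, adjusted p = 7.05e-05 in the authors' deposited table). The promoter peak of Trps1 had 98.9 and 50.5 reads and was not called (adjusted p = 0.198 in the authors' deposited table). Upstream of it, 3 peaks at 87.2, 96.6 and 99.0 kb from the start were called, and the middle one went from 4.27 reads to 39.9. All 5 peaks assigned to Gm19303 were called, among them its promoter peak with 62.9 and 10.8 reads. Beyond them, the 10 peaks assigned to Eif3h, a translation initiation factor subunit gene, were mixed, from 0.830 to 3.27 times, with 3 called. The strongest of these went from 541 reads to 845, and its call was lost with centring on the chromosome (adjusted p = 0.110 against 0.00272 in the authors' deposited table). At the end of the region, the promoter peaks of Eif3h (364 and 340 reads), of the ribosome assembly factor gene Utp23 (416 and 413) and of the cohesin subunit gene Rad21 (399 and 381) were nearly level between the groups. None of the 6 peaks of Utp23 and Rad21 was called, 0 also at an unadjusted p under 0.05.

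Several other gene bodies had more than a single call, and these were picked out after their values were seen. Sema5a had 8 peaks in its body, from 32244813 to 32696341, and every one had a higher mean with the Malat1 guide, by 0.76 to 2.98 on the log2 scale, with 2 called and 8 at an unadjusted p under 0.05. Its intron peak from 32306553 had 99.6 reads for the Malat1 guide against 12.7 in the control, and that from 32328630 had 234 and 60.1. The divergent Snhg18 peak shown above lay at the start of the same gene (adjusted p = 0.00580 in the authors' deposited table, 0.0629 with centring on the chromosome). The whole 1 Mb window from 32 Mb held 18 peaks, all with a higher mean and 6 called, with a median difference of 1.09. In Lima1, which encodes the actin-binding protein EPLIN, 4 of 12 peaks were called higher. They lay 30.3 to 47.0 kb upstream of Cers5, a ceramide synthase gene to which the authors assigned them, and the strongest change was from 37.1 to 128 reads. Of these 4 calls 1 was kept with centring on the chromosome.

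Tafa5, which encodes a secreted chemokine-like protein, had calls in both directions within a single gene. Of its 12 peaks (from 87544219 to 87759364) 33.3% had a higher mean with the Malat1 guide, 2 were called lower and 1 higher. The intron peak from 87659688 fell from 523 reads to 250, and that from 87597112 from 435 to 266. In another intron stretch of the gene, a peak assigned to Mir6393 went from 18.8 to 100 reads. So the losses and the gain lay at separate elements of the same gene. The calcium channel gene Cacna1i likewise had an intron peak that went from 94.4 to 298 reads and another that fell from 329 to 196. At the glutamine transporter gene Slc38a1 the corresponding values were 97.4 to 214 and 87.9 to 31.4. The lower calls of all 3 genes were kept under each centring tried, but centring subtracts a positive shift here and so enlarges differences below 0. The higher call of Slc38a1 was lost with centring on the chromosome (adjusted p recomputed from the authors' deposited table, 0.0835).

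The 12 genes with the smallest p among the higher calls were led by Grhl2, a grainyhead transcription factor of epithelial cells. Its peak at 37200771 to 37201171, 31.9 kb upstream of the start, had 191 reads for the Malat1 guide against 19.1 in the control, a 9.97-fold difference (adjusted p = 2.97e-13 in the authors' deposited table). Near Zc3h3, a zinc finger gene involved in mRNA export, a peak rose from 229 to 581 reads (2.54-fold, adjusted p = 1.93e-07 in the authors' deposited table). A promoter peak of Ppara, the fatty acid-sensing nuclear receptor, lay 0.193 kb downstream of the assigned start. It rose from 89.2 to 298 reads (3.34-fold, adjusted p = 4e-06 in the authors' deposited table). In the control group the Grhl2 peak was thus the weakest of the 3 and the Zc3h3 peak the strongest. Intron peaks of Rbfox2, a splicing regulator (155 to 407 reads), of Itga5, the fibronectin receptor alpha subunit (137 to 352), and of Pacsin2, a membrane-bending protein (33.1 to 155), rose as well. So did those of the zinc finger gene Zfat (23.2 to 152) and of the gamma-tubulin complex gene Tubgcp6 (46.9 to 171), and a distal peak assigned to Mir3964 (26.0 to 140). Of the windows these did not lead, that from 50 Mb was led by the Trps1 intron peak described above, and the smallest p elsewhere belonged to distal peaks assigned to Snora34 (71.2 to 285), Cdh6 (104 to 258), Ebag9 (22.8 to 131) and the growth hormone receptor gene Ghr (32.1 to 108). These calls were kept under all 4 centrings. The promoter peak of Grhl2 itself had 26.6 and 24.4 reads and was not called (adjusted p = 0.992 in the authors' deposited table). A further Grhl2 peak, 109 kb upstream, was called (adjusted p = 0.0461 in the authors' deposited table). That call was lost under all 4 centrings (recomputed adjusted p of 0.0915 to 0.238).

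The lower calls were fewer and started from stronger peaks. Beside Tafa5 and Slc38a1 above, the largest fold was at a peak in an intron of Trappc9 that the authors assigned to the potassium channel gene Kcnk9, which fell from 115 reads to 34.5 (3.33-fold, adjusted p = 0.00120 in the authors' deposited table). Intron peaks of Phf21b (187 to 65.9 reads), of the heat shock regulator Hsf1 (153 to 62.6) and of the leukaemia inhibitory factor receptor gene Lifr (209 to 96.8) fell. Exon peaks fell at Ankrd46 (169 to 63.8) and at sites assigned to the Wnt receptor gene Fzd6 (260 to 113) and to Zfp706 (469 to 209). Distal peaks fell near Zfp622 (281 to 127), Scaf11 (459 to 258) and the glycosyltransferase gene A4galt (247 to 117). A4galt also had 2 higher calls further upstream, at 41.3 and 44.2 kb. All 16 lower calls were kept under each of the 4 centrings. The shifts subtracted on this chromosome were above 0, which enlarges differences below 0. That the lower calls were kept was thus set by the construction and is no added support.

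**Figure D5:**
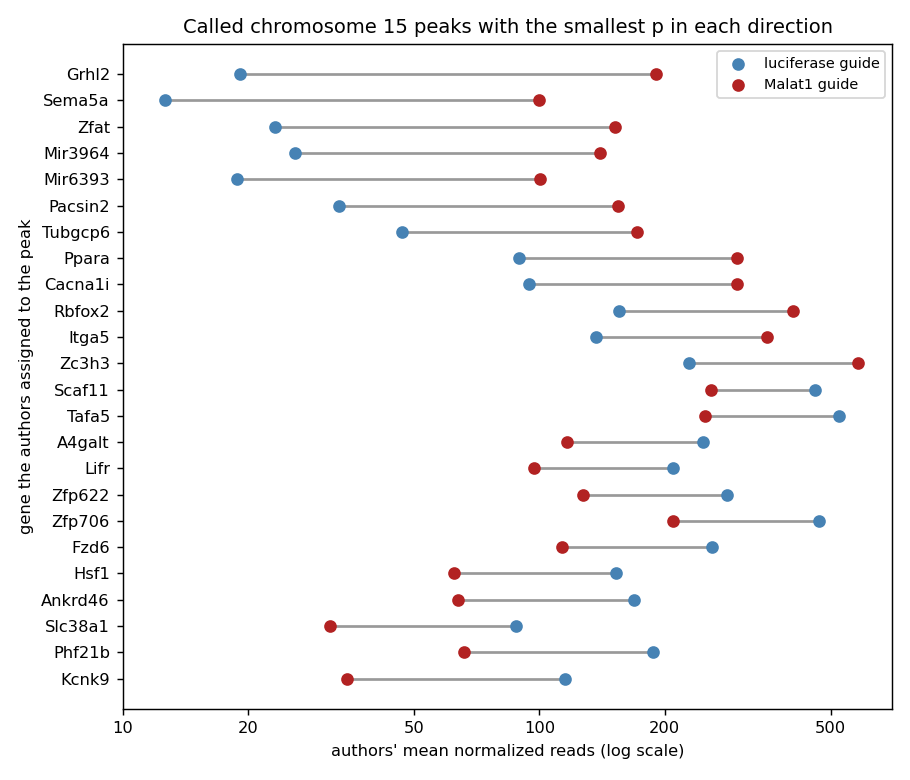
The authors' mean normalized reads with the luciferase guide (blue) and the Malat1 guide (red), on a log axis, at the called chromosome 15 peaks with the smallest p, 1 peak per gene and 12 genes in each direction. The higher calls mostly started below 100 reads with the luciferase guide, Grhl2 at 19.1, and the lower calls mostly above it, Tafa5 at 523.

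Groups of genes were read from 9 lists by role, which overlap. The share of a list's peaks called higher is to be set beside 4.67% of chromosome 15 peaks and 2.23% of all peaks. It was 7.93% for adhesion and matrix, 7.83% for transcription and chromatin regulators, 7.09% for housekeeping, 6.12% for other cell types, 5.19% for cytokine and growth factor signalling, 3.98% for the Myc neighbourhood, 2.04% for keratins, and 0 for the Ly6 and Hoxc lists. These are counts of lists made with results known, with no test. Counts of list peaks at an unadjusted p under 0.05 are to be set beside 611 of 3984 chromosome 15 peaks higher and 69 lower. The list of adhesion and matrix genes had the highest median difference, 0.37 over 164 peaks of 18 genes, with 13 peaks of 10 genes called higher and 0 lower (46 and 0 at an unadjusted p under 0.05). With centring on the chromosome's median its median was 0.17 with 5 higher calls. Its leading members were Itga5 and Ccn3, a matricellular protein gene, whose promoter peak rose from 167 to 392 reads (2.35-fold, adjusted p = 0.000122 in the authors' deposited table). Ccn3 and Cdh6 were higher at most of their sites, with median differences of 0.77 over 16 peaks and 0.82 over 13. Has2, which makes hyaluronan, had 14 peaks with a median of 0.39 and no call.

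Transcription and chromatin regulators had 13 of 166 peaks called higher, at 6 of 28 genes, and 0 lower (33 and 0 at an unadjusted p under 0.05), with a median of 0.24. Besides Grhl2, Ppara and Trps1, calls were assigned to Klf10, a TGF-beta-responsive repressor gene, to Basp1 and to Zfpm2, a GATA cofactor gene. The Klf10 calls lay 73.2 to 90.8 kb upstream of its start, and the Basp1 calls 110 to 1110 kb from its start. The promoter peaks of Klf10 (1501 and 1256 reads) and Basp1 (175 and 130) were not called. The promoter peak over the start of Zfpm2 had 261 reads for the Malat1 guide against 139 in the control. Its call was lost under all 4 centrings (adjusted p of 0.0618 to 0.180). A stronger Zfpm2 promoter peak, 0.939 kb from the start, had 275 and 214 reads and was not called (adjusted p = 0.627 in the authors' deposited table). Strong promoter peaks of the stress factor Atf4 (1232 and 1018 reads) and the sterol regulator Srebf2 (1224 and 1073) were not called either. With centring on the chromosome's median the list kept 8 higher calls.

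The Myc neighbourhood, 201 peaks of 16 genes, had 8 higher calls at 6 genes and 1 lower, the Kcnk9 peak, with a median of 0.20, which was -0.01 with centring on the chromosome. The name of this list is loose: Myc spans 61985341 to 61990361, whereas the Kcnk9 peak starts at 72660040. None of the 6 peaks assigned to Myc or the 10 assigned to Pvt1 was called, 0 also at an unadjusted p under 0.05, and the Myc peak with the smallest p had 587 and 543 reads. An intron peak of Pvt1 from 62139128 that the authors assigned to Macroh2a3, outside the list, was called higher, from 176 to 340 reads (adjusted p = 0.0180 in the authors' deposited table) and lost with centring on the chromosome (0.126) or the 10 Mb window (0.220). Away from Myc, a promoter peak of Ndrg1, a stress- and hypoxia-responsive gene, lay 0.619 kb from the start. It rose from 424 to 727 reads (1.71-fold, adjusted p = 6.08e-05 in the authors' deposited table). The stronger promoter peak over the Ndrg1 start had 1016 reads for the Malat1 guide and 827 in the control. It was not called (adjusted p = 0.286 in the authors' deposited table). An intron peak of Asap1, an Arf GTPase-activating protein gene, rose from 81.9 to 250. Thus the calls of this list lay at other genes than Myc.

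Among the cytokine and growth factor genes, 8 of 154 peaks were called higher, at 5 of 20 genes, and 1 lower, with a median of 0.17 that was -0.03 with centring on the chromosome. Angpt1, the angiopoietin gene, was assigned 3 higher calls, 208 to 330 kb from its start. They went from 61.3 to 133, from 41.9 to 114 and from 70.8 to 167 reads. The neighbouring interleukin 6 family receptor genes had medians below 0: Osmr had a median difference of -0.32 over 13 peaks with 0 called, 0 higher and 1 lower at an unadjusted p under 0.05, and Lifr -0.07 over 25 peaks with 1 called lower. Wnt7b (587 and 511 reads at its leading peak) and Pdgfb (311 and 193) were not called.

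Epithelial keratin genes had 1 of 49 peaks called, 6.27 kb upstream of Krt8, which rose from 83.6 to 208 reads (2.49-fold, adjusted p = 0.00303 in the authors' deposited table). The promoter peak of Krt8 itself had 276 and 208 reads and was not called (adjusted p = 0.577 in the authors' deposited table). That of its partner Krt18 had 133 and 68.7 reads (adjusted p = 0.146 in the authors' deposited table), and the leading peak of Krt7 had 280 and 199. The keratin list had a median of 0.21, close to that of the chromosome, 0.00 after centring on it. As to the label, peaks were assigned to each of the epithelial genes Krt7, Krt8, Krt18 and Grhl2, but the peak set is shared by the groups and accessibility is not expression.

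Genes that mark other cell types were read as a check. All 13 had at least 1 peak, 49 in all, with a median difference of 0.22 and a higher mean with the Malat1 guide at 67.3% of them, and their summed reads were 6130 for the Malat1 guide against 5097 in the control. Some were weak and lower in mean with the Malat1 guide, the leukocyte genes Rac2 (15.3 and 22.8 reads at its only peak), Ncf4 (33.1 and 50.1 at its leading peak) and Csf2rb2 (41.4 and 68.5) and the glial and melanocyte gene Sox10 (11.7 and 23.4). Weak peaks also went the other way, such as the promoter peak of the leukocyte gene Ly6g (48.8 and 28.6 reads, not called). Of the list 3 peaks were called higher and 0 lower, 5 and 0 at an unadjusted p under 0.05. They were assigned to Il2rb, the interleukin 2 receptor beta gene (105 to 226), Fbln1 (58.2 to 155) and the fibroblast collagen gene Col14a1 (249 to 407). The last of these peaks lay in an intron of Deptor, 61.7 kb upstream of Col14a1. The promoter peak of Col14a1 had 28.3 and 21.4 reads and was not called. With centring on the chromosome's median none of the 3 higher calls was kept. The part of other cell types in the differences was not tested.

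The Ly6 family, surface proteins of which Ly6a is also known as Sca-1, had 0 of 47 peaks called, 1 higher and 1 lower at an unadjusted p under 0.05. The Ly6a exon peak had 137 and 78.6 reads (adjusted p = 0.267 in the authors' deposited table), while the peak near Gpihbp1, an endothelial lipase-binding protein gene, had 104 and 169. The Hoxc cluster, developmental regulators, had 0 of 19 peaks called, 1 higher and 0 lower at an unadjusted p under 0.05, and most of its peaks were weak, for example 32.8 and 14.1 reads at Hoxc10 and 19.6 and 38.6 at Hoxc11. The medians of the Ly6 and Hoxc lists were 0.17 and 0.24, and -0.04 and 0.04 with centring on the chromosome.

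Housekeeping genes had 9 of 127 peaks called higher, at 5 of 22 genes, and 0 lower (24 and 0 at an unadjusted p under 0.05), with a median of 0.19 that was -0.01 with centring on the chromosome. Of these calls 7 were distal intergenic, 1 was in an intron and 1, assigned to Eif3h, in an exon. A peak assigned to the ribosomal protein gene Rpl3, in an intron of Syngr1, rose from 72.0 to 199 reads, and one 14.3 kb upstream of the Golgi gene Golph3 from 40.8 to 134. Promoter peaks of such genes differed little, with 1359 and 1248 reads at Rpl37 and 726 and 678 at Rpl30.

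Of the 14 promoter calls on the chromosome, 4 (Ppara, Ndrg1, Ccn3 and Gm19303) were kept with centring on the chromosome's median. The other 10 were those of Snhg18, Fbln1, Cdh6, Lratd2, Slc45a4, Mroh6, Gm5475, Zfpm2, Gsdmd and Lgals1. The weakest of them sat at the limit of the call. The promoter peak of Lgals1, the galectin-1 gene, had 1165 and 901 reads (1.29-fold, adjusted p = 0.0493 in the authors' deposited table) and was the last peak called higher, with adjusted p from 0.148 to 0.782 under the 4 centrings. Just outside, the peak assigned to 4930504C09Rik had a larger fold on fewer reads, 54.9 and 17.0. In the lower direction the last call was near Rrm2b (128 and 309 reads). The next peak, near the imprinted noncoding gene Peg13 in an intron of Trappc9, had 220 and 367 (adjusted p = 0.0592 in the authors' deposited table). The Peg13 peak was called under all 4 centrings, each of which enlarges differences below 0 here.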

How the data were processed

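ATAC-seq was compared in 4 samples, 2 per guide. Per the submitters' processing notes, the authors used Bowtie2, MACS2, DiffBind and ChIPseeker, with FastQC, Picard and deepTools, on the mm10 build. Neither roles nor versions are given in the sources used here. Per the file headers, the deposited table of 80881 peaks gives each peak's annotation, the log2 mean of normalized reads for each group, a log2 fold, a p-value and an adjusted p. The header's group names (dmA12, dLuc) were taken to be the mA2 and Con guides, the series' only contrast. The 4 per-library columns match no sample label by name and were not used, so the depth per library is unknown, no spread was computed, and the authors' deposited p-values stood in for a new fit. Those p-values come from the authors' test on 2 samples a group, and the spread between samples that they rest on could not be checked here.

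Reads are 2 to the power of the deposited log2 mean, and differences are Malat1 guide minus luciferase guide. The deposited fold column was not used: over the called members it was a median of 0.776 of that difference. The deposited fold and the difference had opposite signs at 587 peaks, of which 0 were called chromosome 15 peaks. The adjusted p was checked against a Benjamini-Hochberg adjustment over all peaks, and the values differed by at most 7.4e-06. For centring, the standard error was taken from each difference and its deposited p, the difference was centred (on the median of all peaks, of the chromosome or of the 10 Mb window, or along abundance by lowess, span 0.3), and p-values were adjusted again over all peaks. This code was tested on simulated data. Python 3.11.15, pandas 2.3.3, scipy 1.17.1, statsmodels 0.14.6 and matplotlib 3.10.9 were used. Promoter sequences are RefSeq's (GRCm38.p6).

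Members and lists were chosen with earlier results of these data known. Genes were named by rule: in each direction the 12 genes of smallest p, without predicted models, up to 2 per list, the peaks beside the threshold, the 5 strongest peaks, and the leading call of each 10 Mb window with at least 5 calls. Others, picked after their values were seen, are the promoter calls, the peaks from 50 to 52 Mb, gene bodies with several calls and list members given as examples. The lists were adhesion and matrix, cytokine and growth factor signalling, housekeeping, Hoxc cluster, keratin cluster, Ly6 family, Myc neighbourhood, other cell types, and transcription and chromatin regulators. Overlapping and antisense genes were assigned by the authors to the nearest start, so an assigned gene is a label of position.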

Additional observations from a re-analysis of the deposited data

How the results depend on the processing

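The numbers of higher and lower calls were 88 and 6 at an adjusted p under 0.01, against 186 and 16 at 0.05. Centring changed them by its construction: the lower calls were 26 with centring on the median of all peaks, and the higher and lower calls were 88 and 40 with centring on each chromosome and 80 and 42 with centring on each 10 Mb window. All 4 centrings, a minimum of 50 reads, a minimum log2 difference of 1, peaks of the common width only and leaving out 50 to 52 Mb kept more higher than lower calls. The median difference of 0.21 was 0.18 with a mean of at least 50 reads, 0.19 over peaks not called, 0.19 with 8 reads added to both means, 0.11 after centring on all peaks, 0.11 after centring along abundance and 0.29 as a mean, and stayed above 0 in each. The highest window median, 0.31, was 0.46 in windows of 5 Mb and 0.42 in windows shifted by 5 Mb, the median level of 78.4 reads was 173 as a mean, and the distal intergenic median of 0.26 was 0.22 with at least 50 reads. Of the 75 called peaks for which this was counted, 65 stayed called with centring on all peaks, 64 along abundance, and 51 with centring on each chromosome or window. Other called peaks mentioned, such as those assigned to Angpt1, Klf10, Basp1 and Sdc2, were not in this count. Apart from centring, the cause of these changes was not tested. No paired analysis was possible because the columns carry no replicate numbers of the samples. For the same reason fits without a replicate, with a replicate block or with other count tools were not run. Without depth, the precision of weak peaks cannot be given: 144 of the 186 higher calls had at least 20 reads with the luciferase guide.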

Other observations

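A few further gene bodies on chromosome 15 had a higher mean with the Malat1 guide at every peak and more than a single higher call, and they were picked after their values were seen. Sdc2, a heparan sulfate proteoglycan gene, had 4 peaks with a median difference of 0.97, and Khdrbs3, an RNA-binding protein gene, had 4 with a median of 1.10. Marchf11, a membrane ubiquitin ligase gene, had 5 with a median of 1.01, and Sybu, which encodes the kinesin adaptor syntabulin, had 3 with a median of 1.72. In each of these 4 genes 2 peaks were called higher. In longer genes the calls stood among many peaks that were not called: Mtss1, an actin and membrane regulator gene, had 2 of 19 called with 63.2% higher in mean, and Col22a1, a collagen gene, 2 of 18 with 77.8%.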
